A study of Mus musculus with 2 samples.

Results

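The genes described here are 10 mouse genes read in tissue macrophages of the liver, chosen by symbol: the 3 chains of complement C1q (C1qa, C1qb and C1qc), and Cd5l, Vsig4, Clec4f, Timd4, Marco, Adgre1 and Hmox1. All 10 had a row among the 27998 genes of the matrices. They were measured by droplet single-cell RNA sequencing of CD45+ cells sorted from livers of C57BL/6 mice aged 7 to 10 weeks, with no treatment named in the labels. The LSM library holds cells sorted as CD45+Lin-Sca-1+Mac-1+, and the CD122+CD49a+ library holds cells sorted as CD45+Lin-CD122+CD49a+. There was 1 library per gate, and the labels do not say how many mice gave it, so differences were not checked against replicates and carry no p-value. A UMI (unique molecular identifier) counts 1 captured RNA molecule, and barcodes with at least 500 detected genes are called cells. All intervals are exact 95% intervals that cover counting error only. For a count of 0 the limit given is not such an interval but 3 counts of the total.

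C1q is the recognition molecule of the classical complement pathway, built from A, B and C chains that are encoded by neighbouring genes, and tissue macrophages are its main source. Kupffer cells, the resident macrophages of the liver sinusoids, are known in the mouse for the C-type lectin Clec4f, the complement receptor Vsig4 (CRIg), the secreted scavenger protein Cd5l (AIM), the phosphatidylserine receptor Timd4, the scavenger receptor Marco and the surface protein F4/80, encoded by Adgre1. Hmox1 encodes haem oxygenase, which breaks down haem from ingested red cells, and it is also used by many other cell types.

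In GENCODE release M21 of GRCm38, C1qa lies at chr4:136895917-136898803, C1qc at chr4:136889804-136893065 and C1qb at chr4:136880129-136886187. The 3 genes lie on the minus strand, span 18675 bases together, and no other protein-coding gene lies within that stretch. Cd5l lies on chromosome 3, Clec4f on chromosome 6, Timd4 on chromosome 11, Marco on chromosome 1, Adgre1 on chromosome 17, Hmox1 on chromosome 8 and Vsig4 on chromosome X. None of the 10 overlaps another annotated gene, on either strand.

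The promoter stretches of C1qb and C1qc, which were detected in the same cells, and of Cd5l, Vsig4 and Clec4f, which split those cells, are shown for comparison. They come from the RefSeq promoter table of GRCm38.p6, in which 7 of the 10 genes had an entry, and run 5′ to 3′ up to the gene's start in RefSeq or GENCODE, whichever lies further upstream. Capitals mark matches, on either strand, to the half-site of MAF factors, which reads TGCTGA or, on the other strand, TCAGCA, and to the core of PU.1 sites, which reads GAGGAA or, on the other strand, TTCCTC. No match overlapped another.
C1qb, chr4:136886201-136886450, minus strand: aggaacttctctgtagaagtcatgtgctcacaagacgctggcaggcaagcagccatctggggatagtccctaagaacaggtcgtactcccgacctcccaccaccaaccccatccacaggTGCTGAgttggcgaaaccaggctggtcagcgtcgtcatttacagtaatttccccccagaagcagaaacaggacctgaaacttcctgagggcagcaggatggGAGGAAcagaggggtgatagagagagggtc
C1qc, chr4:136893066-136893164, minus strand: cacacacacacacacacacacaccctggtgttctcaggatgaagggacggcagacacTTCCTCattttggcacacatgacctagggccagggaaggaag
Cd5l, chr3:87357631-87357880, plus strand: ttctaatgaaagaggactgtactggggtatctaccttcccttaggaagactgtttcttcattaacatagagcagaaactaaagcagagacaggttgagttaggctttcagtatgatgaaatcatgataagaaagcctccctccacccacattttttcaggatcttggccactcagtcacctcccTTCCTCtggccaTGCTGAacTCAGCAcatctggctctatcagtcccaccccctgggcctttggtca
Vsig4, chrX:96293439-96293688, minus strand: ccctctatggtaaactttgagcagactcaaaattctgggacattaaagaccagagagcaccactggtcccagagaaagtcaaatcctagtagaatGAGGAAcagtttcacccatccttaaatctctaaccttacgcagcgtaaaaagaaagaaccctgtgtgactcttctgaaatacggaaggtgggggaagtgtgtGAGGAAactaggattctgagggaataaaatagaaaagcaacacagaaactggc
Clec4f, chr6:83656188-83656366, minus strand: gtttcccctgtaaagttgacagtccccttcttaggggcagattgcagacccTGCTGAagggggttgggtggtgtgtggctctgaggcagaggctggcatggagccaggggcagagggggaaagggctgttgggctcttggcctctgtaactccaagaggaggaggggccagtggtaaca
The stretches are 250 bases long for C1qb, Cd5l and Vsig4, 99 for C1qc and 179 for Clec4f. The MAF half-site matched at 1 place in C1qb, 2 in Cd5l and 1 in Clec4f, and the PU.1 core at 1 place in C1qb, 1 in C1qc, 1 in Cd5l and 2 in Vsig4. Of 32851 promoters, 16.1% hold the half-site and 23.3% the core within the same 250 bases; the shares are 6.43% and 9.91% for 99 bases, and 11.6% and 17.1% for 179 bases. Such short matches are a description of the letters only.

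The LSM matrix held 3133 barcodes and 16226070 UMIs, and 3074 cells passed the gene minimum, with a median of 5100.5 UMIs. In the CD122+CD49a+ library 1257 of 1655 barcodes passed, with a median of 1461 UMIs and 2632303 UMIs over all barcodes. Cells were clustered in each library without the 10 genes, and clusters were named from other markers. The libraries shared 3 barcodes, of which 1 was a C1q-high LSM cell with 41 C1q UMIs, and its counterpart in the CD122+CD49a+ library had 0.

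C1q RNA was held by few cells at high levels. A cell was called C1q-high when C1qa, C1qb and C1qc summed to at least 10 UMIs. In the LSM library 47 of 3074 cells met this, 1.53% (interval 1.13 to 2.03), and in the CD122+CD49a+ library 7 of 1257 cells did, 0.557% (0.224 to 1.14). The 47 LSM cells held 10 to 117 C1q UMIs with a median of 40, and 45 of them had a UMI of all 3 chains. The 7 CD122+CD49a+ cells held 36, 25, 23, 22, 16, 11 and 11 C1q UMIs, all with the 3 chains. Just inside the threshold LSM cells had 10, 11, 11, 13 and 13 UMIs, and just outside it 7, 7, 7, 6 and 5. The 2 CD122+CD49a+ cells just inside had 11 UMIs each and the nearest outside had 8, 8 and 7. The C1q levels of these cells are set by the rule and are given as a description. With at least 10 UMIs of each chain, 21 LSM cells and 0 CD122+CD49a+ cells remained.

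The C1q-high LSM cells were shallower than the rest of their library, with a median of 2306 UMIs against 5129 UMIs in the 3027 other cells, and 1061 against 1555 detected genes. The median mitochondrial share was 1.12% in C1q-high cells and 1.38% in other cells. The order of depth was the other way in the CD122+CD49a+ library, with 3162 UMIs in C1q-high cells against 1456 UMIs in other cells. C1q UMIs per 10000 UMIs of the cell had a median of 166 in LSM and 45.8 in CD122+CD49a+ C1q-high cells.

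Within the LSM library 2174 of 2239 C1q UMIs, 97.1% (96.3 to 97.8), lay in the 47 cells, which held 0.910% of all UMIs. Of the 47 cells, 43 fell into cluster 14, a Kupffer cell and macrophage-like cluster of 44 cells in which 12 of 14 marker genes of those cells other than the 10 were raised, and 4 into cluster 1, a conventional DC 2-like cluster. In the CD122+CD49a+ library 144 of 237 C1q UMIs, 60.8% (54.2 to 67.0), lay in the 7 cells, and all 7 fell into its conventional DC 2-like cluster, led by the lectin genes Cd209a and Clec10a. That library had no cluster named from macrophage genes. At a finer clustering (resolution 1.0 in place of 0.6) it had a conventional DC 2-like cluster of 169 cells. It also had an unnamed cluster of 123 cells led by Apoe, Il1b and Axl. In that one 4 of 7 conventional DC 2, 3 of 7 nonclassical monocyte and 5 of 14 Kupffer cell and macrophage markers were raised. All 7 C1q-high cells lay in 1 cluster there too, but which one is not reported here.

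**Figure D1:**
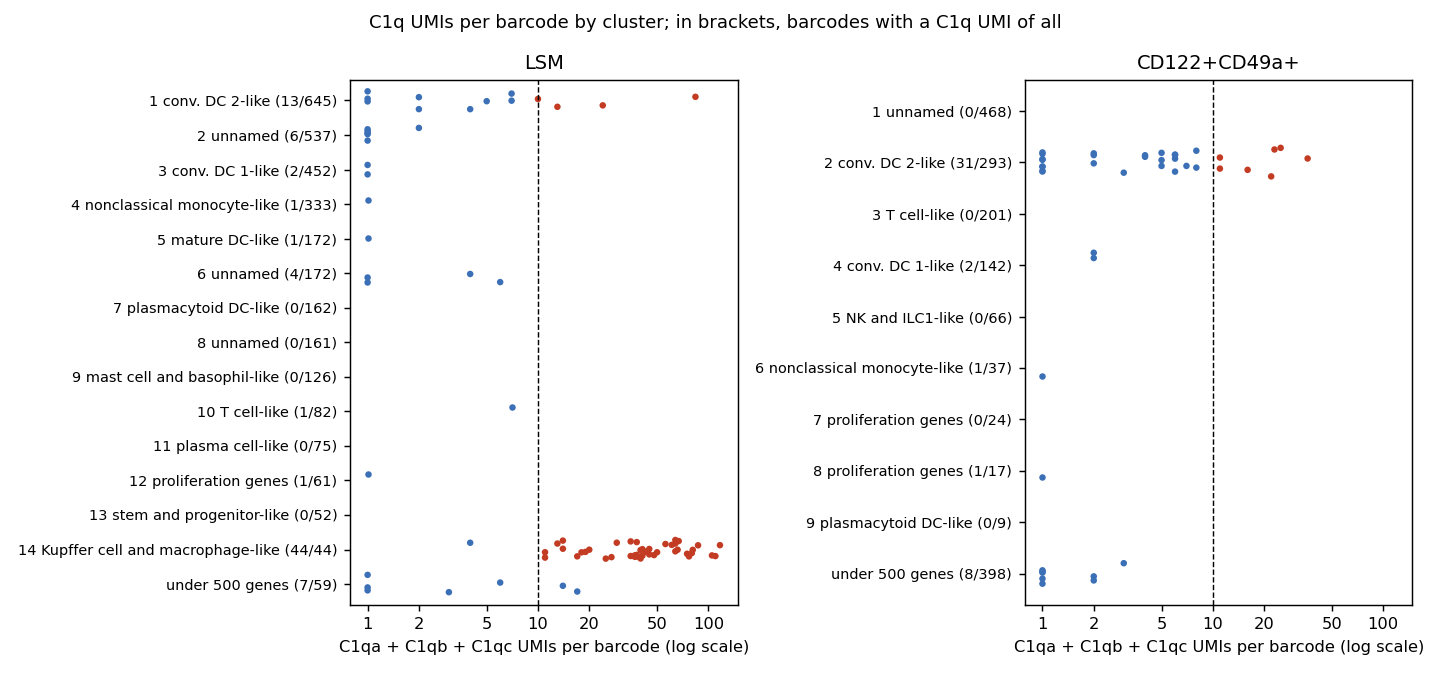
Sum of C1qa, C1qb and C1qc UMIs (x axis, log scale) for every barcode with at least 1 such UMI, by cluster (rows; vertical jitter is random), in the LSM library on the left and the CD122+CD49a+ library on the right. Red points are C1q-high cells and the dashed line is the threshold of 10; cluster 14 holds 43 of the 47 C1q-high LSM cells, whereas all 7 C1q-high CD122+CD49a+ cells lie in cluster 2.

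Below the threshold C1q was rare in LSM cells and lay in several clusters. Of the 3027 other LSM cells, 26 (0.859%, 0.562 to 1.26) had a C1q UMI, 65 UMIs in all or 4.05 CPM (the group's summed counts scaled to a total of 1000000 UMIs), and 15 of the 26 had a single UMI. The conventional DC 2-like cluster held 9 of the 26 among 641 cells (1.40%, 0.644 to 2.65), and unnamed cluster 2, led by Prss2 and Wfdc18, held 6 among 537 (1.12%, 0.411 to 2.42). Unnamed cluster 6, led by Cxcl9 and Ccl17, held 4 among 172 cells, with up to 6 UMIs in a cell, and 1 T cell-like cell held 7. The plasmacytoid DC-like cluster had 0 of 162, which allows a share of up to 1.85%, the mast cell and basophil-like cluster 0 of 126 (up to 2.38%), the plasma cell-like cluster 0 of 75 (up to 4%) and the stem and multipotent progenitor-like cluster 0 of 52 (up to 5.77%). Among 333 nonclassical monocyte-like cells the share was 0.3% (0.00760 to 1.66), which at these counts cannot be told apart from that of the conventional DC 2-like cluster.

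In the CD122+CD49a+ library the low-level C1q signal lay mostly in the cluster that also held the C1q-high cells. Of 1250 other cells 28 had a C1q UMI (2.24%, 1.49 to 3.22), and 24 of the 28 were among the 286 conventional DC 2-like cells (8.39%, 5.45 to 12.2), which reached 157 CPM (125 to 193) and up to 8 UMIs in a cell. The T cell-like cluster, the NK and ILC1-like cluster and unnamed cluster 1, in which T cell genes and NK and ILC1 genes were raised, had 0 C1q-positive cells among 735 together, which allows up to 0.408%. Their median depth was 1266 UMIs, against 1869 UMIs in the conventional DC 2-like cells. After every cell was thinned to 1500 UMIs the shares were 12 of 178 (6.74%) in the conventional DC 2-like cluster and 0 of 225 in those lymphocyte clusters. Among conventional DC 1-like cells 2 of 142 had a C1q UMI. The share in conventional DC 2-like cells therefore lay above that of lymphocyte clusters, with and without thinning. What free RNA gave to either share was not tested. At the finer clustering (resolution 1.0) 82.1% of the 28 cells lay in 1 cluster, which is not named here.

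Over all cells below the threshold, 0.376% of 2925 LSM cells and 2.52% of 595 CD122+CD49a+ cells had a C1q UMI once thinned to 1500 UMIs (intervals 0.188 to 0.672 and 1.42 to 4.12). Without thinning the LSM share was 0.859%, and among CD122+CD49a+ cells with at least 1000 genes it was 4.31%. The threshold of 10 was set on unthinned counts, at median depths of 5100.5 UMIs in LSM and 1461 UMIs in CD122+CD49a+ cells. Cells below it were thus not chosen at equal depth in the libraries. When cells with 5 or more C1q UMIs were left out, the thinned shares were 0.205% in LSM and 1.02% in CD122+CD49a+.

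The share of C1qb differed between C1q-high LSM cells and the cells below the threshold. C1qb made up 39.0% (36.9 to 41.0) of C1q UMIs in C1q-high LSM cells, against 58.5% (45.6 to 70.6) in the other LSM cells. C1qa made up 36.2% (34.1 to 38.2) in C1q-high cells, against 23.1% (13.5 to 35.2) in other cells, and C1qc 24.9% against 18.5%; for these chains the intervals overlapped. In the CD122+CD49a+ library C1qb was 47.9% (39.5 to 56.4) in C1q-high cells and 61.3% (50.6 to 71.2) in other cells, with overlapping intervals. The C1qb share of CD122+CD49a+ cells below the threshold also overlapped that of LSM cells below it. LSM barcodes under the gene minimum held 43 C1q UMIs, of which 39.5% (24.98 to 55.6) were C1qb and 37.2% C1qa. UMIs of a cell are not independent draws, so these intervals are too narrow where few cells carry many UMIs.

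**Figure D2:**
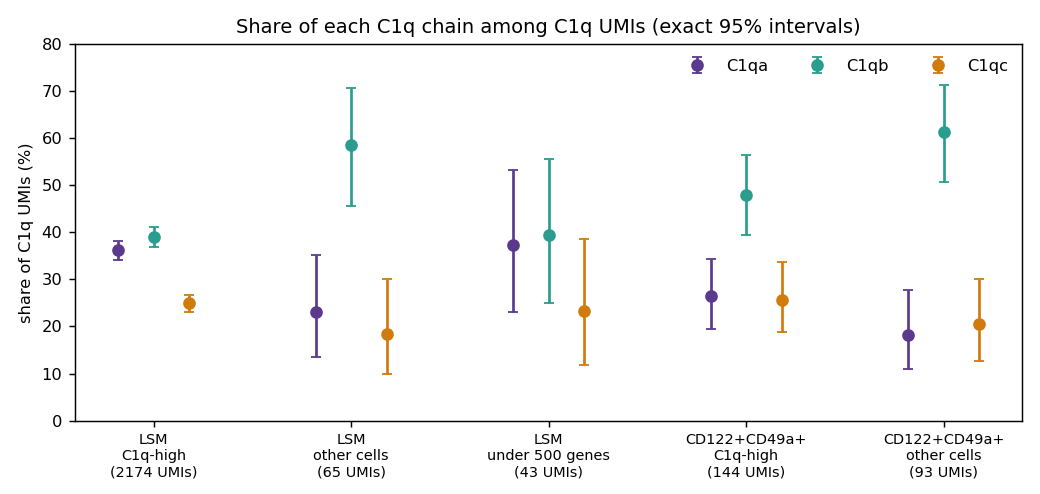
Share of C1qa, C1qb and C1qc (colours; y axis, % of C1q UMIs, exact 95% intervals) in C1q-high cells, other cells and barcodes under 500 genes of the LSM library and in both kinds of cells of the CD122+CD49a+ library. The C1qb share is 39.0% in C1q-high LSM cells and 58.5% in the other LSM cells.

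The Kupffer cell genes were detected in a minority of the C1q-high LSM cells and almost nowhere else. Cd5l had 112 UMIs in 9 of 47 C1q-high cells, against 0 UMIs in 3027 other LSM cells, a level at least 4066-fold higher with the floor of 3 counts over the group. Vsig4 had 47 UMIs in 7 C1q-high cells against 1 UMI in the other cells. Clec4f had 153 UMIs in 12 C1q-high cells against 8 UMIs in 5 other cells, of which 1 with 4 UMIs was the single cell of cluster 14 below the C1q threshold. Timd4 had 10 UMIs in 7 C1q-high cells against 4 UMIs in 4 other cells, and Marco 9 UMIs in 3 against 2 UMIs in 2. These 5 genes thus had 71.4% (Timd4) to 100% (Cd5l) of their LSM UMIs in the C1q-high cells.

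Adgre1 and Hmox1 were shared with other classes. Adgre1 had a UMI in 23 of 47 C1q-high cells (48.9%, 34.1 to 63.9), the widest detection among the 7 genes outside C1q, and in 107 other LSM cells (3.53%). Of these 107, 63 were nonclassical monocyte-like cells (63 of 333, 18.9%, 14.9 to 23.5) and 32 conventional DC 2-like cells (32 of 641, 4.99%). Its level was 292 CPM (211 to 393) in C1q-high cells and 90.0 CPM (70.8 to 113) in the nonclassical monocyte-like cluster. Hmox1 had a UMI in 12 of 47 C1q-high cells, 61 UMIs or 414 CPM (317 to 532), and in 137 other LSM cells. In the nonclassical monocyte-like cluster 69 of 333 cells had it (20.7%, 16.5 to 25.5) at 206 CPM (177 to 240), with up to 27 UMIs in a cell, and in the plasma cell-like cluster 10 of 75 cells had it. Only 26.1% of LSM Adgre1 UMIs and 18.9% of LSM Hmox1 UMIs lay in C1q-high cells.

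At an equal depth of 1500 UMIs, 41 C1q-high and 2925 other LSM cells were compared. Adgre1 was detected in 39.0% (24.2 to 55.5) of C1q-high cells against 1.98% (1.51 to 2.56) of other cells, and Clec4f in 24.4% (12.4 to 40.3) against 0.0342%. Hmox1 was detected in 24.4% (12.4 to 40.3) against 2.32% (1.81 to 2.94). For Cd5l the shares were 17.1% (7.15 to 32.1) against 0 of 2925 cells, which allows up to 0.103%. For Vsig4 they were 14.6% against 0.0342%, for Timd4 9.76% against 0 of 2925 and for Marco 4.88% against 0.0342%. For each of the 7 genes the interval in C1q-high cells lay above that in other cells, at this depth and without thinning. It did so for 6 of the 7 with at least 10 UMIs of each chain, and for 6 with at least 1000 genes. The share of all genes with intervals apart in this way was not counted, so these counts are a description only. Thinned to 1000 UMIs, the share of C1q-high cells was 23.9% for Adgre1 and 10.9% for Hmox1.

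**Figure D3:**
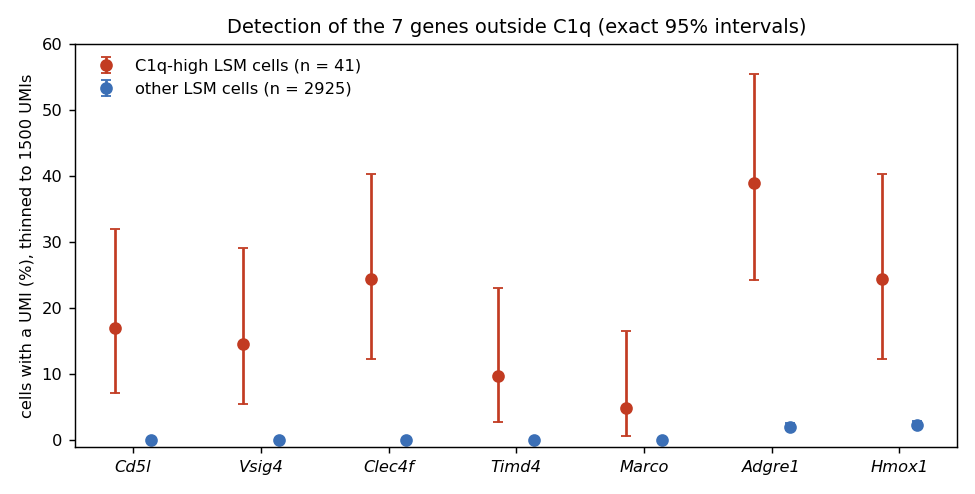
Percent of cells with a UMI (y axis) of each of the 7 genes outside C1q, in 41 C1q-high LSM cells (red) and 2925 other LSM cells (blue), after thinning to 1500 UMIs; bars are exact 95% intervals. Adgre1 reaches 39.0% of C1q-high cells and Marco 4.88%, and each gene is below 3% in other cells.

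Within the C1q-high cells the Kupffer cell genes were found in the same cells. All 7 Vsig4-positive cells also had Clec4f, all 7 Timd4-positive cells had Cd5l, and Cd5l and Clec4f were found together in 7 cells, Cd5l without Clec4f in 2 and Clec4f without Cd5l in 5. The 3 Marco-positive cells had a UMI of each of the other 9 genes. Across the 47 cells, as a description, Spearman correlations of UMIs per 10000 were 0.70 for Cd5l with Clec4f, 0.77 for Cd5l with Vsig4 and 0.78 for Vsig4 with Clec4f, and the 3 chains correlated with each other at 0.64 to 0.70. The correlation of the 7 genes with C1q per 10000 ranged from -0.08 (Marco) to 0.28 (Adgre1). These values share the cell's depth, and most cells had 0 UMIs of the Kupffer cell genes. Median C1q per 10000 was 193 in the 12 cells with Clec4f and 159 in the 35 without it.

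Because Cd5l, Vsig4 and Clec4f were nearly absent elsewhere, the 47 cells were grouped by how many of the 3 had a UMI, a grouping chosen after their values were seen. At least 2 of them were found in 8 cells (17.02%, 7.65 to 30.8), 1 in 6 cells and none in 33 cells (70.2%, 55.1 to 82.7). Median depths were 3248, 3975.5 and 2249 UMIs in that order, and after thinning to 1000 UMIs 6, 4 and 36 of 46 cells fell into the sets. Among the 25 C1q-high cells with at least 1000 detected genes the sets held 7, 5 and 13 cells, so the share without the 3 genes depends on the depth of the cells kept. The median of C1q UMIs per 10000 was 200 in the 8 cells, 138 in the 6 cells and 166 in the 33 cells, and their ranges overlapped. Of the 33 cells, 30 lay in cluster 14, as did all 8 cells with at least 2 of the genes. The 33 cells held 2 of the highest doublet scores and the other sets 0.

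In the 8 cells, Clec4f counted 33, 26, 22, 19, 16, 11, 8 and 1 UMIs, and Cd5l 27, 25, 20, 18, 12, 5, 2 and 0. Vsig4 counted 17, 10, 7, 5, 5, 2, 1 and 0, and Hmox1 23, 11, 8, 4, 3, 3, 1 and 0 in them. Most of these cells thus carried several UMIs of each gene, whereas Timd4 did not exceed 2 UMIs in a cell. Hmox1 had 53 of its 61 C1q-high UMIs here and 4 UMIs in the 33 cells, a level 49.95-fold higher (18.4 to 190). Adgre1 was closer between the sets, with 15 UMIs in the 8 cells and 24 in the 33 cells, 593 against 252 CPM and 2.36-fold higher (1.15 to 4.68). The 3 C1q chains were 1.42-fold (C1qb) to 1.66-fold (C1qc) higher in the 8 cells than in the 33.

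**Figure D4:**
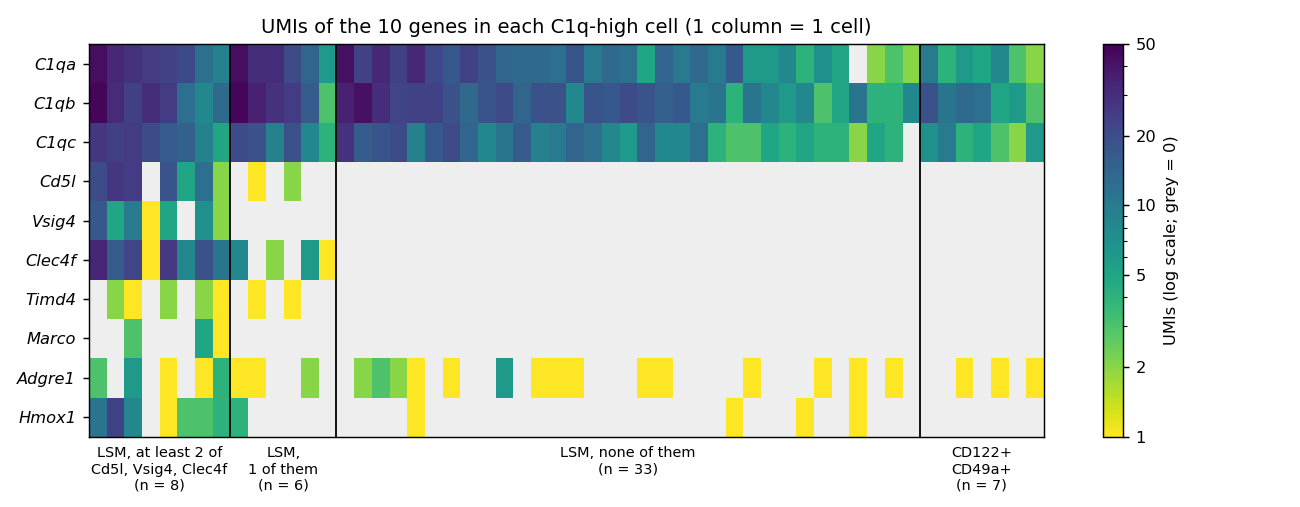
UMIs (colour, log scale; grey is 0) of the 10 genes (rows) in each C1q-high cell (columns), with LSM cells grouped by how many of Cd5l, Vsig4 and Clec4f had a UMI and the 7 CD122+CD49a+ cells at the right, sorted by C1q UMIs within a group. C1q is present in every column, whereas Cd5l, Vsig4 and Clec4f are read mostly in 8 LSM columns, which also hold 53 of the 61 Hmox1 UMIs.

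Other genes were also unevenly split. Among genes with at least 30 UMIs in C1q-high cells, those with the largest ratios in the 8 cells over the 33 cells included Apoc1, an apolipoprotein gene (140 against 0 UMIs), Slc40a1, the iron exporter ferroportin (66 against 3 UMIs, 82.9-fold, 27.2 to 412), and Fcna, the lectin ficolin A (51 against 0 UMIs). These 3 met the minimum only through the 8 cells, so their place is a description of where their UMIs lay. Below that minimum, Folr2, a folate receptor, had 28 UMIs in the 8 cells against 0 in the 33 cells, and Clec1b 24 against 0. Slc40a1, Fcna, Folr2 and Clec1b each had a UMI in 8 of the 8 cells. Sdc3, a syndecan, had 32 against 5 UMIs, and Cfp, the complement regulator properdin, 26 against 9, 10.9-fold (4.95 to 26.4). Ccl24 had 38 against 12 UMIs and Wfdc17 257 against 101 UMIs. The ratio of Cxcl9 (49 against 5 UMIs) rested on 1 cell. Sdc3, Cfp, Ccl24 and Cxcl9 also met the minimum only through the 8 cells, so their ratios are a description too, whereas Wfdc17 met it without them. Since Cd5l, Vsig4 and Clec4f chose the sets, their own difference is no result.

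Another group of genes was higher in the 33 cells without Cd5l, Vsig4 and Clec4f than in the 8 cells. The fractalkine receptor Cx3cr1 had 1 UMI in the 8 cells against 47 UMIs in 21 of the 33 cells, and the tetraspanin Cd9 had 1 UMI against 56 UMIs in 20 of the 33. The chemokine Ccl4 had 2 UMIs in the 8 cells, against 168 UMIs in 22 of the 33, and S100a4 1 against 58, of which 30 lay in 1 cell. Beside the LSM cells that were not C1q-high, the 33 cells had 493 against 58.6 CPM of Cx3cr1 and 588 against 195 CPM of Cd9. For Ccl4 the levels were 1763 against 1585 CPM, and S100a4 was lower in the 33 cells, at 608 against 1345 CPM. Cx3cr1, Cd9 and S100a4 met the minimum of 30 UMIs in C1q-high cells only through the 33 cells, whereas Ccl4 met it without them. The differences of those 3 genes are thus a description of where their UMIs lay. Apoe, Lyz2 and Id3 differed less than 2-fold between the sets: Apoe was 23535 against 14730 CPM, Lyz2 6882 against 7166 CPM, and Id3 1582 against 1207 CPM. Other macrophage genes were higher in the 8 cells: Mrc1 7.00-fold (2.60 to 20.7), Ctsd 5.47-fold (2.99 to 10.2), Ctsb 3.36-fold (2.42 to 4.65) and Csf1r 2.31-fold (1.41 to 3.71).

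Cd207, which encodes the lectin langerin and lies 15027 bases from Clec4f with no protein-coding gene between them, had all of its 106 LSM UMIs in C1q-high cells. It was found in 16 of them, in 9 of the 12 cells with Clec4f and in 7 of the 35 without it. Its 2 UMIs in the CD122+CD49a+ library lay outside C1q-high cells. A pair of further cells, both with Cd5l and Timd4 but without Vsig4 and Clec4f, held all 74 C1q-high UMIs of Prg4, all 34 of Saa3 and all 36 of Fn1, with 552 of 1494 Lyz2 UMIs. These cells had 84 and 64 C1q UMIs and set the place of these 3 genes in the ranking below.

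**Figure D5:**
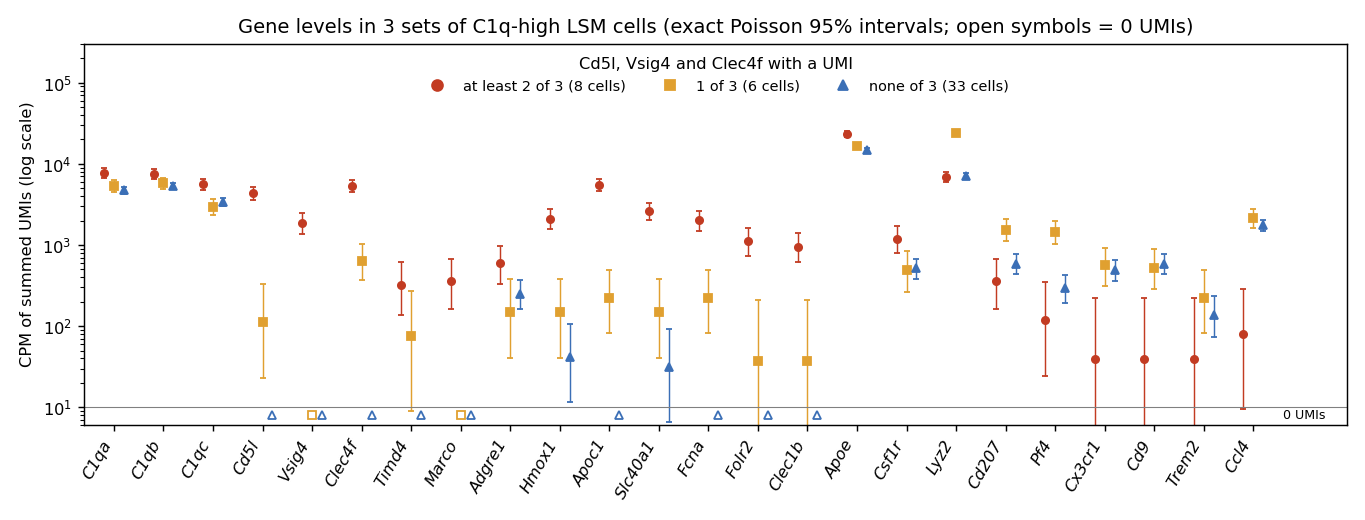
Level (y axis, CPM of summed UMIs on a log scale, exact Poisson 95% intervals; open symbols below the grey line are 0 UMIs) of the 10 genes and of 14 others in C1q-high LSM cells with at least 2 (red circles, 8 cells), 1 (yellow squares, 6 cells) or none (blue triangles, 33 cells) of Cd5l, Vsig4 and Clec4f. Apoc1, Slc40a1, Fcna, Folr2 and Clec1b are highest in the red set, Cx3cr1, Cd9 and Ccl4 are higher in the yellow and blue sets than in the red, and Lyz2 is close in red and blue.

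Ranked by the share of their LSM UMIs in C1q-high cells, the 15 leading genes outside the 10 were Cd207 (100%), Prg4 (97.4%), Fcna (95%), Slc40a1 (94.8%), Folr2 (93.5%), Pf4 (93.3%), Ptgs1 (79.4%), Apoc1 (77.7%), Saa3 (68.0%), Lpl (55.7%), Ms4a7 (54.8%), Trem2 (46.5%), Cadm1 (41.1%), Nr1h3 (40.7%) and Fn1 (39.1%). Of 10407 genes with at least 30 LSM UMIs, 17 had at least 50% of them in C1q-high cells, and 6 of these 17 were members of the list of 10. Of the 6, C1qa, C1qb and C1qc chose the cells. Cd5l, Vsig4 and Clec4f reached 30 UMIs only through C1q-high cells, so the count of 6 was fixed by the rules and is no support. Pf4, known from platelets, had 70 UMIs in 17 C1q-high cells, while the platelet genes Ppbp, Itga2b and Gp9 were at 0 there. Lpl, lipoprotein lipase, had 39 UMIs in 15 cells. Nr1h3, which encodes the nuclear receptor LXR alpha, had 35 UMIs in 13 C1q-high cells and was found in 39 of the other 3027 cells. The cells were chosen by C1q alone, so these shares describe which RNA the same cells carried.

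Most genes of the macrophage list were higher in C1q-high cells. At least 4-fold higher CPM in C1q-high than in other LSM cells, with at least 30 UMIs, was found for 648 of 10407 genes (6.23%), and at least 4-fold lower CPM for 132 (1.27%). With the mean of per-cell CPM 787 were higher and 311 lower. The balance of higher and lower is not read as a result, since C1q-high cells hold few UMIs and a gene at 0 there is set to the floor of 3 counts, which makes a call as lower harder to reach. Of 13 other Kupffer cell genes 10 had at least 30 UMIs, and all 10 were past the limit. For Fcna, Slc40a1 and Folr2 this was fixed by the minimum, which they reached only through the C1q-high cells, so the count is no support. The levels ranged from Id3, a transcriptional regulator (1283 against 247 CPM), to Fcna (387 against 0.187 CPM), with Clec1b at 170 against 12.7 CPM. Of 14 countable macrophage genes 12 were higher, with a median log2 ratio of 4.31 beside 0.02 for all genes, and of these Trem2 reached the minimum only through the C1q-high cells. Apoe, apolipoprotein E, reached 16574 against 293 CPM, and Lyz2, lysozyme, 10144 against 1145 CPM. Aif1 (3.27-fold) and Cd68 (3.88-fold) stayed under the 4-fold limit. Of the 7 genes outside C1q, Adgre1 (38.4-fold, 26.5 to 54.8) and Hmox1 (25.4-fold, 18.9 to 33.6) had at least 30 UMIs in other cells too. Cd5l, Vsig4 and Clec4f reached 30 only through the C1q-high cells, and Timd4 and Marco did not reach it.

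Apart from C1q, the complement genes were mixed. The classical pathway needs C1r and C1s proteases and C4, C2 and C3 downstream of C1q. C1ra had 0 UMIs in C1q-high LSM cells and 1 UMI in other LSM cells, and C1rb and C1s1 had 0 UMIs in the library. C4b had 8 of its 11 LSM UMIs and C2 1 of its 15 in C1q-high cells. C3, the only gene of this list with 30 UMIs, had 4 of its 126 UMIs in 3 C1q-high cells and was found in 77 other cells, a CPM ratio of 3.57 (0.958 to 9.38). Among the regulators, Cfp (346 against 78.3 CPM) was at least 4-fold higher, Cr1l was not, and Cd55 had 0 UMIs in C1q-high cells. Of 9 countable receptors for complement fragments or C1q, 5 were at least 4-fold higher, beside 6.23% of all genes: C3ar1, C5ar1, Cd93, Lrp1 and Lair1. C5ar1 had 109 against 3.05 CPM and Lrp1 224 against 26.4 CPM, whereas Calr, calreticulin, had 326 against 268 CPM. The list median log2 ratio was 2.11 for the receptors, beside 0.02 for all genes.

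Of 13 countable haem and iron genes 4 were at least 4-fold higher, beside 6.23% of all genes: Slc40a1 (by the minimum, as above), Blvrb, Cd163 and Slc11a1. The list median log2 ratio was 1.74, beside 0.02 for all genes. Blvrb, biliverdin reductase B, had 319 against 42.0 CPM and the metal transporter gene Slc11a1 170 against 11.7 CPM. The 4 UMIs of Cd163, a haemoglobin scavenger receptor, in C1q-high cells all came from 1 cell. The ferritin genes Fth1 (5724 against 3601 CPM) and Ftl1 (5500 against 2065 CPM) were found in 3008 and 2999 of the 3027 other cells and stayed under 4-fold. Of 6 countable genes for uptake of dead cells and scavenging, Axl (115 against 4.80 CPM), Mrc1 (149 against 3.43 CPM) and Lrp1 were at least 4-fold higher, beside the same 6.23%. The list median was 2.29, again beside 0.02, and Scarb1, Cd36 and Mfge8 had 2, 3 and 2 UMIs in C1q-high cells.

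Markers of liver cells outside the blood lineages were few in the C1q-high LSM cells, while some dendritic cell and monocyte genes were present. The hepatocyte list had 151 UMIs there, of which 146 were Apoc1, and Alb, Apoa2, Serpina1a and Fabp1 were at 0. All 6 stellate cell genes were at 0. Of 8 sinusoidal endothelial genes only Stab2 was seen, with 2 UMIs, and of 7 T cell genes only Cd3d, with 1 UMI. The hepatocyte list stood at 5577 CPM in the 8 cells and 42.0 CPM in the 33 cells. Conventional DC 1 genes summed to 713 CPM in C1q-high and 702 CPM in other LSM cells, and conventional DC 2 genes to 516 and 579 CPM. Of the 105 conventional DC 1 UMIs in C1q-high cells, Batf3 gave 44, Cadm1 30 and Irf8 24, and Xcr1 and Itgae were at 0. Sirpa gave 47 of the 76 conventional DC 2 UMIs. Classical monocyte genes stood at 577 against 337 CPM, but of their 85 UMIs Ccr2 gave 48 and Fn1 36, all from 2 cells for Fn1. Ly6c2 had 1 UMI, and Chil3, Vcan and F13a1 were at 0. Nonclassical monocyte genes summed to 316 CPM in the 8 cells and 640 CPM in the 33 cells, against 343 CPM in other LSM cells, with Cx3cr1 giving 63 of 91 UMIs over all C1q-high cells. The part of other cell types in these differences was not tested.

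In the 7 C1q-high CD122+CD49a+ cells the genes other than C1q and Adgre1 were not detected. Cd5l, Vsig4, Clec4f, Timd4, Marco and Hmox1 had 0 UMIs in them, which with 7 cells allows a share of up to 42.9% each, so the number of cells does not exclude the shares seen in LSM C1q-high cells. Adgre1 had 3 UMIs in 3 of the 7 cells, against 33 UMIs in 26 of the 286 other cells of their cluster, 134 against 59.4 CPM (ratio 2.26, 0.443 to 7.19). Compared with those 286 cells, the C1q-high cells had 3975 against 732 CPM of Apoe (5.43-fold, 4.27 to 6.84) and 625 against 86.4 CPM of the receptor gene Axl (7.24-fold, 3.69 to 13.3). C3 stood at 804 against 169 CPM (4.75-fold, 2.70 to 7.93) and Lyz2 at 8128 against 4139 CPM. Of the genes that name the cluster, Cd209a had 0 UMIs in the 7 cells, against 356 UMIs in 126 of the 286 others (641 CPM), and Clec10a 0 against 176 UMIs in 86 cells. Mgl2 had 1 against 142 UMIs, while Sirpa stood at 313 against 272 CPM (ratio 1.15, 0.455 to 2.43) and Itgax at 447 against 324 CPM (ratio 1.38, 0.650 to 2.60). The 7 cells thus had 0 UMIs of Cd209a and Clec10a but not of every marker of their cluster, and are called by their C1q level here.

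Between the gates, summed over all cells, Cd5l and Clec4f were read almost only in LSM, while C1q was read in both. The C1q sum was 138 CPM in LSM and 101 CPM in CD122+CD49a+ (ratio 1.37, 1.20 to 1.58). By chain, C1qa was 2.12-fold (1.61 to 2.83), C1qb 1.02-fold (0.846 to 1.24) and C1qc 1.43-fold (1.09 to 1.92) that of CD122+CD49a+. The direction of the sum turned round without the C1q-high cells, where the ratio was 0.101, and among cells with at least 1000 genes, where it was 0.458; with the mean of per-cell CPM it was 3.26. Of the 8 genes with at least 30 UMIs over both libraries, Cd5l (112 against 1 UMI, 16.3-fold, 2.86 to 648) and Clec4f (161 against 0 UMIs, at least 7.80-fold with the floor of 3 counts per library) were past 4-fold, having reached 30 UMIs only through LSM, where 2.8% of 10837 genes were higher and 5.33% lower by that limit. Of all genes past it 34.4% were higher in LSM (303 higher, 578 lower), against 60.5% (465 and 304) with TMM scaling, which moved the median of all genes by 0.44 (log2). Among cells with at least 1000 genes the bound for Clec4f was 2.79, under the limit. Without the C1q-high cells Clec4f had 8 LSM UMIs and Cd5l 0. Adgre1 was 10.2 CPM in LSM and 18.7 CPM in CD122+CD49a+ (ratio 0.545, 0.389 to 0.778), but 1.18 by the mean of per-cell CPM. Hmox1, at 19.95 and 16.2 CPM, did not differ beyond counting error in these sums (ratio 1.23, 0.881 to 1.78), but the ratio was 2.09 by the mean of per-cell CPM. A gate holding more cells of a type and cells holding more RNA cannot be told apart in such sums.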

How the data were processed

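Liver CD45+ cells of 2 sorting gates were measured by 10x single-cell RNA sequencing, 1 library per gate. Per the submitters' processing notes STAR, Seurat 2.3.0 and GRCm38 were used, with no role given; per the file headers the matrices came from version 3.0.1 of the matrix software. The deposited values are UMI counts per gene and barcode, not normalized by the authors. Barcodes with at least 500 detected genes were kept. The 10 genes and all lists were chosen with earlier results of these data known.

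Counts were summed over cells and given as CPM. With 1 library per gate there is no test across samples, so shares have exact Clopper-Pearson intervals, sums exact Poisson intervals and ratios exact conditional intervals (95%, scipy 1.17.1), and they cover counting error only. A sum of 0 was set to a floor of 3 counts over the group in ratios. A gene counted as higher or lower with at least 30 UMIs and a 4-fold ratio. Shares at equal depth come from a random 1500 UMIs of each cell, without the cells that had fewer. Cells were clustered with scanpy 1.11.5 (2000 variable genes, 20 principal components, 15 neighbours, Leiden resolution 0.6) without the 10 genes. Scrublet's automatic cut marked 0.319% and 0.242% of LSM and CD122+CD49a+ barcodes, too few to have worked, so doublets were kept and the 79 and 22 highest scores were left out as an alternative. TMM factors came from edgeR 4.0.16 as an alternative scaling of the library totals. The ratio and interval code was tested on simulated data.

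The text names the 10 genes, up to 6 genes of each list with the most LSM UMIs, and the 15 others with the largest share of LSM UMIs in C1q-high cells. Genes compared between cells with and without Cd5l, Vsig4 and Clec4f, and other genes named, were chosen after their values were seen. Some genes of the lists are not reported here.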

Additional observations from a re-analysis of the deposited data

Results flagged for a closer look

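C1q UMIs were also read in barcodes below the gene minimum, which are counted as cells in no comparison above; their chain shares are given there. In the LSM library 7 of 59 such barcodes had a C1q UMI (11.9%, interval 4.91 to 22.9), with 43 UMIs in all, and 2 of them held at least 10. Clec4f had 16 UMIs there, in 3 barcodes. In the CD122+CD49a+ library 8 of 398 had a C1q UMI (2.01%, 0.872 to 3.92), with 12 UMIs in all. There are no control samples to set these shares against.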

How the results depend on the processing

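Of 176 values recomputed under an alternative, 138 moved by less than their counting interval or 1.5 times, 38 moved further and 0 reversed a called direction. With at least 10 UMIs of each chain there were 21 C1q-high LSM and 0 CD122+CD49a+ cells, and 63.8% of LSM C1q UMIs lay in the LSM ones. With a sum of at least 5 there were 17 CD122+CD49a+ cells and the LSM share was 98.5%; with at least 20 there were 4 and 90.8%. The intervals lay apart for 6 of the 7 genes outside C1q, in place of 7, with at least 10 UMIs of each chain and with at least 1000 genes. Such intervals were not compared for all genes. Among cells with at least 1000 genes 25 LSM cells were C1q-high, with 96.1% of C1q UMIs. The share of LSM cells below the threshold with a C1q UMI was 0.859% without thinning; for CD122+CD49a+ cells it was 1.02% when cells with 5 or more C1q UMIs were left out and 4.31% with at least 1000 genes. With a minimum of 3 UMIs 1156 genes were at least 4-fold higher in C1q-high cells, and 311 were lower with the mean of per-cell CPM. The ratio of the C1q sum, LSM over CD122+CD49a+, was 1.86 with TMM, 3.26 with the mean of per-cell CPM, 0.101 without C1q-high cells and 0.458 with at least 1000 genes; for this value the cause was not tested. No paired analysis was possible because each gate had 1 library, and for the same reason no replicate could be left out. Bounds under 1 for Vsig4, Clec4f and Marco gave no value. The 7 CD122+CD49a+ cells and the shallower cells of that library limit what could be detected there. The comparison of the 7 cells with their own cluster was added after seeing the data.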
